A study of Mus musculus with 8 samples.

Results

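The genes described here are 10 components of the NF-κB system, the 5 subunits of the transcription factor and 5 proteins that restrain or modify it, in cultured hepatic macrophages. They were taken from the deposited gene count table by symbol, 10 of 55401 genes, and each was found once. The subunits are *Rela*, *Rel*, *Relb*, *Nfkb1* and *Nfkb2*. The genes of the proteins that restrain or modify the factor, called inhibitors here for short, are *Nfkbia*, *Nfkbie*, *Nfkbiz*, *Bcl3* and *Tnfaip3*. Macrophages had been isolated with anti-F4/80 magnetic beads from normal livers of WT mice (C57BL/6J background, standard diet) or from steatotic livers of MC4R-KO mice on the same background, given a Western diet for 6 to 10 wk. On collagen-coated plates they then received vehicle (Veh) or 500 μg/ml cholesterol crystals (CC) for 24 h, the crystals being solid sterol particles that are taken up into lysosomes, and the question was how either kind of macrophage responds to this lysosomal stress. Poly(A) RNA was sequenced in 8 libraries, 2 for each of the 4 combinations of liver and treatment. Genotype and diet changed together, so their parts cannot be told apart, and the number of mice behind each culture is not given in the sources used here. The study's long-term model used male mice aged 8 wk when the diet began, and no separate age is given for the mice of these cultures.

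The libraries held 58668655 to 74529462 counts each. *Mc4r*, knocked out in the donors of the steatotic livers, was at 0 counts in every library labelled normal and at 22 to 72 counts in every library labelled steatotic. This goes against the labels, unless reads also come from the knocked-out allele. Monocyte markers, which fatty liver disease is known to raise, mostly ran the way of the labels. With Veh, 6 of 7 were higher with the label steatotic at an adjusted p under 0.05, against 16.4% of all tested genes. *Plac8* was at 3.52 CPM with the label normal and at 68.8 CPM with the label steatotic, and *Cx3cr1* at 2.24 and 2.18 CPM. The groups are therefore named by their labels, and every direction between livers rests on them. Macrophage markers were abundant in all groups, with a summed level of 10200 to 16300 CPM (counts scaled to 1000000 counts of the library) over 8 genes including *Adgre1*, *Cd68* and *Csf1r*. Kupffer cell markers, also 8 genes, summed to 2450 to 4550 CPM. With Veh, 4 of them were higher and 3 lower with the label steatotic, against 16.4% and 14.3% of all tested genes. The labels do not say that the 2 libraries of a group came from different animals, so p-values measure the spread between these libraries, which may be technical. In bulk RNA, fewer cells of a type and less RNA per cell cannot be told apart.

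NF-κB is a family of dimers built from RelA, RelB, c-Rel and the DNA-binding subunits processed from the *Nfkb1* and *Nfkb2* precursors. In resting macrophages, IκBα (encoded by *Nfkbia*) and IκBε (*Nfkbie*) hold the dimers in the cytoplasm until the IκB kinase marks them for degradation, and a slower, noncanonical route processes the *Nfkb2* precursor so that RelB dimers can act. *Nfkbia*, *Nfkbie*, *Nfkb2*, *Relb*, *Rel* and *Tnfaip3* are themselves textbook NF-κB target genes, which closes feedback loops. *Tnfaip3* encodes A20, a ubiquitin-editing enzyme that shuts off signaling upstream of the kinase. IκBζ (*Nfkbiz*) and Bcl-3 are nuclear IκB proteins, which bind the p50 or p52 subunits on DNA and can activate as well as repress genes.

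The promoters of the genes are shown first because several of these genes are known targets of the factor they encode or restrain. RefSeq promoter windows on GRCm38.p6 reach from 250 bases before the first transcribed base to 50 bases after its start, and they were found for *Rela*, *Rel*, *Nfkb2*, *Nfkbia*, *Nfkbie*, *Bcl3* and *Tnfaip3*, 10 windows for 7 genes. The NF-κB consensus, searched on both strands, occurred in 8 of these 10 windows and in 6 of the 7 genes, all but *Rela*. Of all 32851 RefSeq promoter windows, 1480 (4.51%) held it. The narrower form GGGANTTTCC occurred in 3 windows, those of *Nfkbia* and of *Nfkb2*, against 135 (0.411%) of all windows. The 2 *Nfkb2* windows with that form overlap and hold the same site, and the *Nfkb2* window printed here does not hold it. Overlapping matches were counted within a window as 1 window with the motif. A match describes the letters only. The bases before the transcription start are printed 5′ to 3′ on the strand of the gene, with matches to the consensus on either strand in capitals, for the gene with the highest level (*Nfkbia*), the genes called in both livers (*Nfkb2* and *Rel*), the gene with the largest fold change (*Tnfaip3*) and the gene whose window held no match (*Rela*):
*Nfkbia*, chr12:55492648-55492897, minus strand: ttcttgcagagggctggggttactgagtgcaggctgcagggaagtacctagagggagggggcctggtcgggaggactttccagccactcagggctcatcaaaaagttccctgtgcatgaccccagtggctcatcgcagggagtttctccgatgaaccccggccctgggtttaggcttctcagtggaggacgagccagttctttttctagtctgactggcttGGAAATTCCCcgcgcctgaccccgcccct
*Nfkb2*, chr19:46304487-46304736, plus strand: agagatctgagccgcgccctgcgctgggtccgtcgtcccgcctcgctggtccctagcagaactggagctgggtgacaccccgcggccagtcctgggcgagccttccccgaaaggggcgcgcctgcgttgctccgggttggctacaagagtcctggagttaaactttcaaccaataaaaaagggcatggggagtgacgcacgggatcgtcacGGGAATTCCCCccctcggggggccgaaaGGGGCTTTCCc
*Rel*, chr11:23770970-23771219, minus strand: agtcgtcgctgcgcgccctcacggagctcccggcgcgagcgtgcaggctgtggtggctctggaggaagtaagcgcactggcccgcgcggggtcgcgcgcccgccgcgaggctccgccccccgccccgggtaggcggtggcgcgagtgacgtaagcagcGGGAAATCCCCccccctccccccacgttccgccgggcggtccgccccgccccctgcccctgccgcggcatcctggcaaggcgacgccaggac
*Tnfaip3*, chr10:19015411-19015660, minus strand: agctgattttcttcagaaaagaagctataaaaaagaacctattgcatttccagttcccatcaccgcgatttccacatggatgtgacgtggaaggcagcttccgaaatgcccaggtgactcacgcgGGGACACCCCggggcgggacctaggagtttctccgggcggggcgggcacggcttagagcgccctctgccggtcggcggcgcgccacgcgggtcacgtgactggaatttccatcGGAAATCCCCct
*Rela*, chr19:5637291-5637540, plus strand: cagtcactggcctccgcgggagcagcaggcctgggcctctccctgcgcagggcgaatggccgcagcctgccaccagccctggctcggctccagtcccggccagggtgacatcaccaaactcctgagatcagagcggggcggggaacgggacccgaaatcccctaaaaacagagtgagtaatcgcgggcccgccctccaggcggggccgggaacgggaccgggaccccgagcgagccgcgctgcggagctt
In *Nfkbia*, the capitals mark 1 match on the opposite strand, from -29 to -20 relative to the first transcribed base at 0, and that match also had the narrower form. *Nfkb2* held overlapping matches around -39 and a further match from -11 to -2 on the gene strand. In *Rel*, overlapping matches on both strands began at -92. *Tnfaip3* held a match from -125 to -116 on the gene strand and another from -12 to -3 on the opposite strand.

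**Figure D1:**
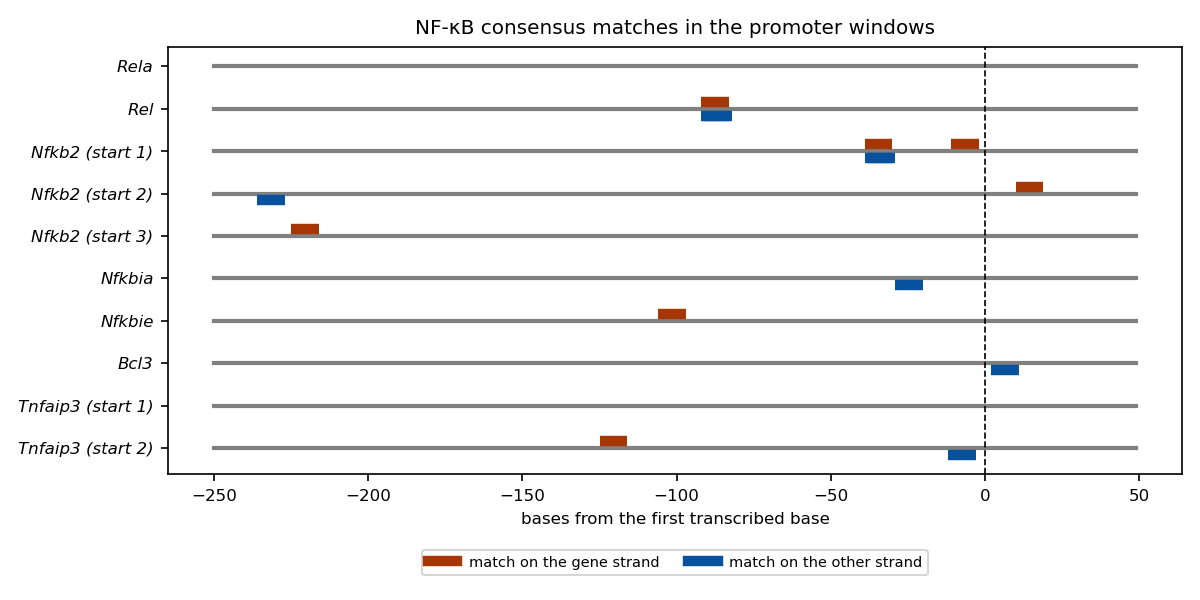
Positions of NF-κB consensus matches in the RefSeq promoter windows of 7 genes, in bases from the first transcribed base (horizontal axis), with 1 line per window, genes with several start sites shown more than once, and color giving the strand. The 8 windows with a match include every gene shown except *Rela*, and *Nfkbia*, *Nfkb2* (start 1) and *Tnfaip3* (start 2) each have a match within 39 bases upstream of the start.

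All 10 genes passed the filter of 0.5 CPM in at least 1 library, the lowest value among them being 22.0 CPM. The deposited table lists *Nfkbia* as ENSMUSG00000021025.8, and GENCODE M21 places it on the minus strand of GRCm38 at chr12:55489410-55492647. *Nfkb2* (ENSMUSG00000025225.15) lies at chr19:46304320-46312385 on the plus strand, *Relb* (ENSMUSG00000002983.17) at chr7:19606217-19629438 and *Bcl3* (ENSMUSG00000053175.17) at chr7:19808462-19822770, both on the minus strand, and *Nfkbiz* (ENSMUSG00000035356.17) at chr16:55811375-55838899 on the minus strand. *Tnfaip3* (ENSMUSG00000019850.11) lies at chr10:19000910-19015657 on the minus strand, and all are protein coding. Compared per length, as CPM per kilobase of annotated exon (GENCODE M21), *Nfkbia* was the highest in every group, from 137.3 ± 6.53 (SD, n = 2) with Veh in the libraries labelled steatotic to 206.1 ± 2.04 with CC. *Rela* followed, between 37.4 and 44.7 CPM per kb, and *Nfkb2* ranked 3 in all groups except the libraries labelled steatotic with Veh, where *Bcl3* (22.7) stood above *Nfkb2* (20.6). In the libraries labelled normal with Veh, the order continued with *Bcl3* (18.4), *Relb* (15.3), *Nfkbiz* (11.2), *Nfkb1* (9.61), *Nfkbie* (8.46), *Rel* (7.61) and *Tnfaip3* (5.41). Neighbors from *Nfkb1* to *Rel* in this order overlapped between libraries, and *Tnfaip3* was the lowest gene without overlap. In the libraries labelled steatotic with CC, *Tnfaip3* ranked 5 at 23.3 ± 11.5 CPM per kb, overlapping with its neighbors *Bcl3* (23.7) and *Relb* (20.1), and *Rel* was the lowest at 10.5.

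**Figure D2:**
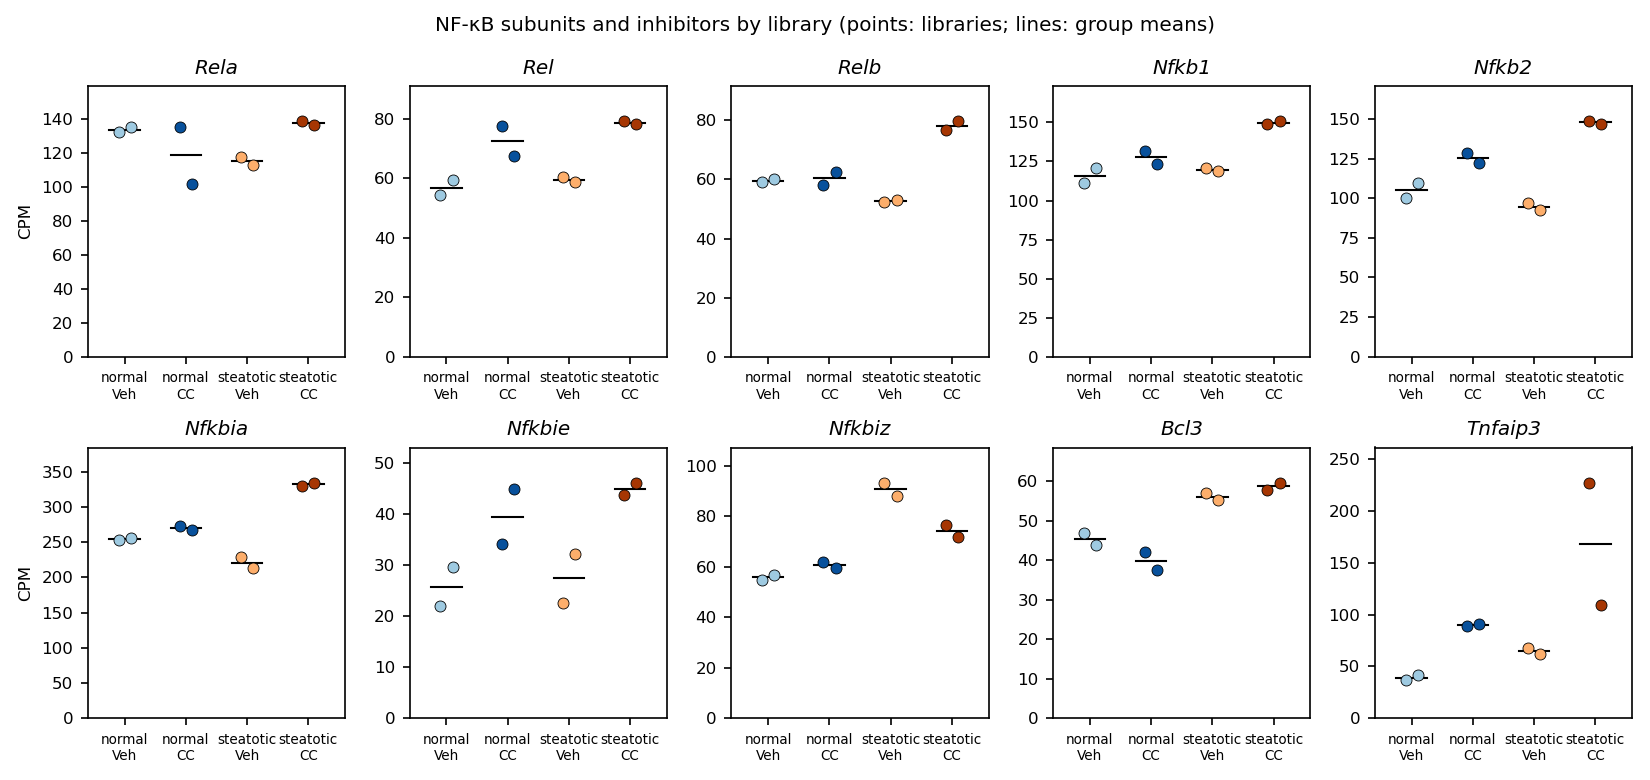
CPM (vertical axis, from 0) of each gene in the 8 libraries, grouped by liver label and treatment, with points for libraries and lines for group means. The 2 points of the libraries labelled steatotic with CC lie above those with Veh for every gene except *Nfkbiz*, whose 4 libraries labelled steatotic all lie above those labelled normal.

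In macrophages labelled steatotic, CC raised *Nfkb1*, *Nfkb2*, *Rel*, *Relb* and *Nfkbia* by 1.27- to 1.58-fold and lowered *Nfkbiz* to 0.829 of its Veh level. These 6 of 10 genes passed an adjusted p of 0.05 (edgeR quasi-likelihood test, Benjamini-Hochberg over 15202 genes), 5 higher and 1 lower, where 22.9% of all tested genes were called, 12.0% higher and 10.9% lower. The median log2 fold change of the 10 genes was 0.50, against 0.00 over all tested genes. The libraries did not overlap between CC and Veh for any of the 10 genes, 9 being higher and 1 lower, against 29.1% and 32.6% of all tested genes.

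Among the subunits, *Nfkb2*, the precursor of the noncanonical pathway, was at 96.7 and 92.5 CPM with Veh and at 148 and 147 CPM with CC in the libraries labelled steatotic. The libraries with CC were both higher by about the same amount (log2 fold change 0.66, SE 0.0558, adjusted p = 0.000133). *Nfkb2* shares 531 exon bases with the opposite-strand transcript AC114539.1 and 299 with the opposite-strand gene *Psd*, which were at 3.48 to 8.99 CPM, and the strand setting of the authors' counting is not given in the sources used here. *Relb*, which encodes the partner of the processed *Nfkb2* product, was at 52.5 and 53.2 CPM with Veh and at 76.6 and 79.6 CPM with CC (log2 fold change 0.58, SE 0.0533, adjusted p = 0.0002). *Nfkb1* was at 121 and 119 CPM with Veh and at 149 and 151 CPM with CC, a smaller rise of 0.34 on the log2 scale (SE 0.0531, adjusted p = 0.00297). *Rel*, which encodes c-Rel, was at 60.4 and 58.7 CPM with Veh and at 79.1 and 78.3 CPM with CC, so that its libraries also stood clearly apart (log2 fold change 0.42, SE 0.075, adjusted p = 0.00563). *Rela*, which encodes the main activating subunit, was at 117 and 113 CPM with Veh and at 138 and 136 CPM with CC. Its log2 fold change of 0.27 did not pass (95% interval -0.03 to 0.57, adjusted p = 0.184), and its SE of 0.122 also rests on the libraries labelled normal with CC, which were at 135 and 102 CPM. Of its 17 alternative fits, 3 called it (adjusted p from 0.00688 to 0.43), all of them without 1 or both of those libraries.

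Among the inhibitors, *Nfkbia* was at 228 and 214 CPM with Veh and at 330 and 334 CPM with CC in the libraries labelled steatotic. The rise was 0.60 on the log2 scale (SE 0.0423), with the lowest adjusted p of the 10 genes (5.33e-05). *Nfkbiz* went the other way, from 93.3 and 88.2 CPM with Veh to 76.7 and 72.0 CPM with CC (log2 fold change -0.27, SE 0.0564, adjusted p = 0.0115). That call was lost without replicate 1 of the Veh libraries (adjusted p = 0.0711) or replicate 2 of the CC libraries (adjusted p = 0.0654) labelled steatotic, and over its 17 alternatives the adjusted p ranged from 0.00569 to 0.0711. *Bcl3* was at 57.0 and 55.3 CPM with Veh and at 57.9 and 59.6 CPM with CC, with a log2 fold change of 0.08 (95% interval -0.08 to 0.24).

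*Tnfaip3* had the largest fold changes of the 10 genes and missed the threshold in both livers. With the label steatotic, it was at 68.0 and 62.2 CPM with Veh and at 227 and 110 CPM with CC (log2 fold change 1.39, SE 0.355, 95% interval 0.46 to 2.32, adjusted p = 0.0536). Both libraries with CC were above both with Veh, but they differed from each other by 2.07-fold, and of 1982 genes of like level only 0.757% differed more between these 2 libraries. With the label normal, it was at 36.5 and 41.6 CPM with Veh and at 88.9 and 90.7 CPM with CC, where the libraries of each group lay close together (log2 fold change 1.24, SE 0.356, adjusted p = 0.109). The spread in this fit is shared by all 8 libraries. Without replicate 1 of the libraries labelled steatotic with CC, the log2 fold change was 0.77 with the label steatotic (adjusted p = 0.0022) and 1.24 with the label normal (adjusted p = 0.000274). Without replicate 2, the values were 1.82 (adjusted p = 5.51e-05) and 1.24 (adjusted p = 0.000256). The adjusted p ranged from 5.51e-05 to 0.221 over the 17 alternatives with the label steatotic and from 0.000256 to 0.348 with the label normal, and DESeq2 called the gene in both. *Nfkbie* also missed the threshold in both livers, while DESeq2 called it in both (adjusted p = 0.00148 with the label steatotic and 0.00872 with the label normal, the highest over the alternatives being 0.262 and 0.445). It was at 22.6 and 32.1 CPM with Veh and at 43.7 and 46.1 CPM with CC in the libraries labelled steatotic (log2 fold change 0.73, SE 0.235, adjusted p = 0.0827), and at 22.0 and 29.6 CPM against 34.0 and 44.9 CPM in those labelled normal (0.65, SE 0.235, adjusted p = 0.159). Its replicates differed by up to 1.42-fold.

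In macrophages labelled normal, CC raised *Nfkb2* and *Rel*, by 1.23- and 1.31-fold. These 2 of 10 genes were called, both higher, against a background of 11.8%, 6.27% higher and 5.54% lower. The 1795 genes behind that share fell to 1071 without replicate 1 with Veh and to 1014 or 1090 without replicate 1 or 2 with CC. The median log2 fold change was 0.16. The libraries with CC were all higher for 7 genes and all lower for 1, against 22.8% and 32.9% of all tested genes. *Rel* went from 54.3 and 59.3 CPM with Veh to 77.5 and 67.6 CPM with CC (log2 fold change 0.39, SE 0.0751, adjusted p = 0.0152). *Nfkb2* went from 100.3 and 109 CPM to 129 and 122 CPM (0.29, SE 0.0556, adjusted p = 0.0141). Neither pair of groups overlapped, but both calls were lost without replicate 1 of the Veh libraries (*Rel* 0.33 with adjusted p = 0.0873, *Nfkb2* 0.23 with adjusted p = 0.072) or replicate 1 of the CC libraries (*Rel* 0.29 with adjusted p = 0.0747, *Nfkb2* 0.26 with adjusted p = 0.0889). The lowest adjusted p over the 17 alternatives was 0.000711 for *Rel* and 0.00172 for *Nfkb2*. *Relb* was at 59.0 and 60.2 CPM with Veh and at 58.2 and 62.5 CPM with CC, overlapping groups with a log2 fold change of 0.06 (95% interval -0.07 to 0.18). *Nfkbia* was at 253 and 256 CPM with Veh and at 273 and 268 CPM with CC, a small difference of 0.13 (95% interval 0.03 to 0.22, adjusted p = 0.109). *Nfkb1* was at 111 and 120.5 CPM with Veh and at 132 and 124 CPM with CC (0.18, adjusted p = 0.079), *Nfkbiz* at 55.0 and 57.0 CPM and at 62.0 and 59.5 CPM (0.15, adjusted p = 0.139), and *Bcl3* at 47.0 and 43.9 CPM and at 42.1 and 37.5 CPM (-0.15, adjusted p = 0.221). *Rela* was at 132 and 135 CPM with Veh and at 135 and 102 CPM with CC, with groups that overlapped (log2 fold change -0.14, adjusted p = 0.563). Without replicate 1 of the libraries labelled normal with CC, *Rela* was called lower at -0.36 (adjusted p = 0.0165), and without replicate 2 its value was 0.05 (adjusted p = 0.661, within a range of 0.0165 to 0.764 over the 17 alternatives).

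The response to CC differed between livers for *Relb*, *Nfkbia* and *Nfkbiz*, by a test of the difference itself (steatotic minus normal, in the same model). These 3 of 10 genes compare with a background of 3.22% (1.95% higher and 1.27% lower). The 490 genes behind that share fell to 307 or 314 without replicate 1 or 2 labelled normal with CC and to 296 without replicate 2 labelled steatotic with Veh. *Nfkbia* responded more strongly with the label steatotic, by 0.48 on the log2 scale (SE 0.0596, 95% interval 0.34 to 0.62, adjusted p = 0.00674), and so did *Relb*, by 0.53 (SE 0.0752, 95% interval 0.35 to 0.70, adjusted p = 0.0117). For both, the CPM of the libraries labelled steatotic were the lower ones with Veh and the higher ones with CC. *Nfkbiz* had a difference of -0.42 (SE 0.0799, 95% interval -0.61 to -0.24, adjusted p = 0.0348), since CC went with lower values under the label steatotic and higher ones under the label normal. The call for *Nfkbiz* was lost in 7 of the 8 fits that left out 1 library (only that without replicate 1 of the libraries labelled steatotic with CC kept it), with values from -0.47 to -0.38 and an adjusted p of up to 0.112. The call for *Relb* was lost without replicate 1 of the libraries labelled steatotic with Veh, at 0.51 (adjusted p = 0.0501, within a range from 0.000331 over the 16 alternatives), and that for *Nfkbia* was kept in all 16 alternatives. *Nfkb2* had a difference of 0.37 (SE 0.0786, adjusted p = 0.0556), and 4 of 16 alternatives called it, namely DESeq2 (adjusted p = 0.0257), library size only, every gene with any count, and without replicate 1 labelled normal with Veh (0.43, adjusted p = 0.045), with a range of 0.019 to 0.171 over all. For *Rel*, the difference was 0.03 with an interval of -0.22 to 0.28, and for *Tnfaip3* 0.15 with a wide interval of -1.14 to 1.45.

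**Figure D3:**
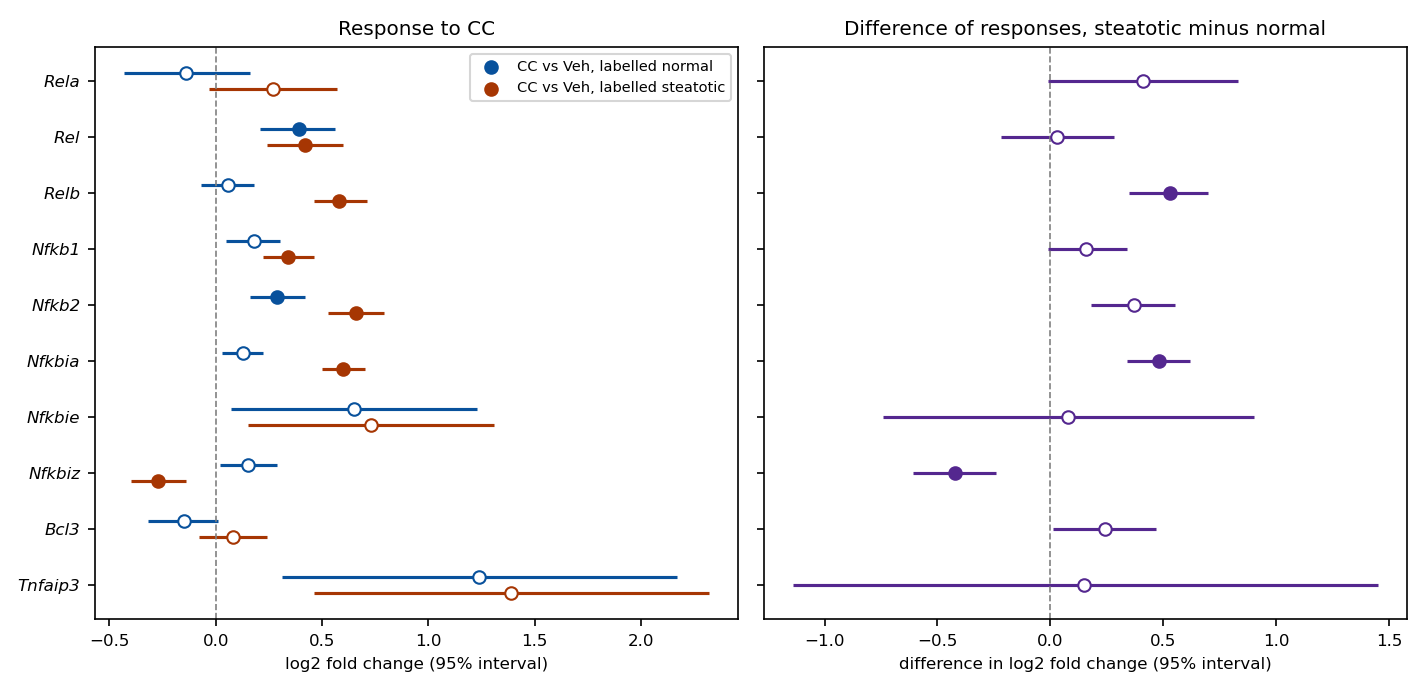
Left, log2 fold change with CC against Veh for each gene in macrophages labelled normal (blue) or steatotic (brown), and right, the difference of these responses (steatotic minus normal), all with 95% intervals and filled where the adjusted p is under 0.05. *Relb*, *Nfkbia* and *Nfkbiz* are filled on the right, at 0.53, 0.48 and -0.42, and the intervals of *Tnfaip3* and *Nfkbie* are the widest.

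Without crystals, the nuclear IκB genes *Nfkbiz* and *Bcl3* were higher with the label steatotic and *Nfkbia* was lower. With Veh, *Nfkbiz* was at 55.0 and 57.0 CPM in the libraries labelled normal and at 93.3 and 88.2 CPM in those labelled steatotic, 1.67-fold higher (log2 fold change 0.74, SE 0.0568, adjusted p = 5.74e-05). *Bcl3* was at 47.0 and 43.9 CPM against 57.0 and 55.3 CPM, 1.28-fold higher (0.35, SE 0.0695, adjusted p = 0.00705). *Nfkbia* was lower with the label steatotic, at 228 and 214 CPM against 253 and 256 CPM (-0.16, SE 0.0422, adjusted p = 0.0267). None of these groups overlapped. The 3 called genes, 2 higher and 1 lower, stood against a background of 30.7%, 16.4% higher and 14.3% lower, a share of the 10 genes close to that background. The call for *Nfkbia* was held by 12 of 17 alternatives (adjusted p from 0.00864 to 0.152) and was lost with DESeq2 (adjusted p = 0.0578), with the libraries of the comparison alone (adjusted p = 0.0566) and without replicate 1 (adjusted p = 0.0728) or 2 (adjusted p = 0.104) labelled normal with Veh or replicate 2 labelled steatotic with Veh (adjusted p = 0.152), at -0.11 in the last. *Tnfaip3* was at 36.5 and 41.6 CPM against 68.0 and 62.2 CPM, with groups that did not overlap and a log2 fold change at 0.78 (SE 0.353, adjusted p = 0.175). That test shares its spread with the discordant libraries labelled steatotic with CC, and without either of them the adjusted p was 0.000549 or 0.000501 (0.000501 to 0.427 over 17 alternatives). The subunits differed by -0.17 to 0.11 on the log2 scale and none was called. *Rela* (-0.17) was called in 3 of 17 alternatives, those without replicate 1 (adjusted p = 0.0334) or 2 (adjusted p = 0.0329) labelled normal with CC or without both (0.0329 to 0.62 over all), and *Relb* in 1, with library size only (-0.17, adjusted p = 0.0428, up to 0.308 over all).

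With CC present, 6 of 10 genes were called higher with the label steatotic and none lower, against a background of 28.8%, 15.9% higher and 12.9% lower. They were *Bcl3* (log2 fold change 0.59, SE 0.0697, adjusted p = 0.000667), *Relb* (0.40, SE 0.0532, adjusted p = 0.00118), *Nfkbia* (0.32, SE 0.0422, adjusted p = 0.00109), *Nfkbiz* (0.32, SE 0.0566, adjusted p = 0.00478), *Nfkb1* (0.26, SE 0.0531, adjusted p = 0.00942) and *Nfkb2* (0.26, SE 0.0555, adjusted p = 0.0101). The libraries labelled steatotic were all higher for 9 of 10 genes, against 30.8% of all tested genes (34.7% were all lower), and only *Nfkbie* overlapped. The calls for *Nfkb1* and *Nfkb2* were lost without replicate 2 of the libraries labelled normal with CC, at 0.21 (adjusted p = 0.0624) and 0.23 (adjusted p = 0.0658), and were held by the other 16 of 17 alternatives each (lowest adjusted p 0.00298 and 0.00299). *Tnfaip3* (0.93, adjusted p = 0.123) and *Rela* (0.24, adjusted p = 0.209) were not called. *Tnfaip3* was called with DESeq2 (0.93, adjusted p = 0.0397) and without replicate 2 labelled steatotic with CC (1.37, adjusted p = 0.000139), within a range of 0.000139 to 0.314 over the 17 alternatives. *Rela* was called without replicate 1 labelled normal with CC (0.46, adjusted p = 0.00245), within a range of 0.00245 to 0.6. This comparison uses the same libraries as the responses above, so the values are not independent of them. Comparing the same genes with Veh and with CC, *Nfkbia* was lower with the label steatotic in the first and higher in the second, whereas *Bcl3* was higher in both.

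Other genes of the pathway were examined by role, in lists chosen with earlier results of these data known. The shares called in these lists are therefore descriptions and not independent of the data. Of 29 textbook NF-κB target genes, 27 were tested, and with the label steatotic CC raised 19 and lowered none, against 12.0% and 10.9% of all tested genes, with a median log2 fold change of 0.78. Without replicate 1 or 2 labelled normal with CC, or replicate 1 labelled steatotic with CC, or with the libraries of the comparison alone, 1 target was called lower. With the label normal, 15 rose and 1 fell (median 0.66), against 6.27% and 5.54% of all tested genes, and 2 fell without replicate 2 with CC. *Cxcl2*, a neutrophil-attracting chemokine, rose from 12.2 ± 1.24 to 87.2 ± 7.82 CPM (SD, n = 2) with the label steatotic (log2 fold change 2.86, SE 0.101, adjusted p = 2.92e-06) and from 38.1 ± 0.368 to 104 ± 8.38 CPM with the label normal (1.48, SE 0.0957, adjusted p = 0.000109). *Ptgs2*, which encodes cyclooxygenase-2, rose from 14.8 ± 1.34 to 99.2 ± 6.81 CPM with the label steatotic (2.76, SE 0.104, adjusted p = 3.16e-06). *Ptgs2* also rose with the label normal (1.18, SE 0.0998, adjusted p = 0.000364). *Il1b*, which encodes IL-1β, fell with the label normal, from 99.7 ± 0.282 to 70.4 ± 5.62 CPM (-0.47, SE 0.0628, adjusted p = 0.00308), and rose with the label steatotic, from 82.2 ± 4.0 to 114 ± 0.396 CPM (0.49, SE 0.0627, adjusted p = 0.00111). *Ccl22*, a chemokine, rose with the label normal from 0.502 ± 0.229 to 3.35 ± 0.905 CPM (2.77, SE 0.615, adjusted p = 0.0283). By the test of the difference (steatotic minus normal), the log2 response of 9 targets was higher with the label steatotic, with a negative value in macrophages labelled normal for *Il1b*, *Icam1* (-0.13, adjusted p = 0.223) and *Saa3* (-0.16, adjusted p = 0.333), and that of 1 was lower (2 without replicate 1 of the CC libraries of either label), against 1.95% and 1.27% of all tested genes.

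With Veh, 7 of the 27 tested targets were higher and 11 lower with the label steatotic (median -0.15), against 16.4% and 14.3% of all tested genes. Without replicate 1 labelled normal with Veh, 4 were higher. *Lcn2*, which encodes lipocalin-2 (log2 fold change 1.99, SE 0.203, adjusted p = 0.000489), and the chemokine *Ccl5* (1.81, SE 0.0438, adjusted p = 3.96e-07) were higher. *Cxcl2* (-1.60, SE 0.0977, adjusted p = 1.93e-05) and the chemokine receptor *Ccr7* (-2.08, SE 0.592, adjusted p = 0.0391) were lower. In the libraries with CC, 11 targets were higher and 6 lower with the label steatotic, against 15.9% and 12.9% of all tested genes. A larger response did not always go with a higher level there. *Ptgs2* was higher (1.97, adjusted p = 8.34e-06), whereas *Cxcl2* was not called (-0.23, adjusted p = 0.115).

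Of 13 other inhibitors, CC raised 5 and lowered none in either liver, with medians of 0.23 (steatotic) and 0.22 (normal), where the background was 12.0% higher and 10.9% lower with the label steatotic and 6.27% and 5.54% with the label normal. With the label steatotic, 3 rose without replicate 1 of the Veh or of the CC libraries, and 1 was called lower without the latter, with DESeq2, with the replicate block or with every gene that had any count. With the label normal, 1 rose without replicate 1 of its Veh or CC libraries (1 was called lower without the former, with DESeq2 or with every gene that had any count), 3 without replicate 2 of either and 2 without replicate 1 or 2 labelled steatotic with Veh, with library size only or with the replicate block. *Irak3*, a kinase-like brake on Toll-like receptor signaling, rose from 76.0 ± 3.92 to 122 ± 5.67 CPM with the label steatotic (log2 fold change 0.70, SE 0.143, adjusted p = 0.0166). *Tnip1*, a binding partner of A20, rose with both labels (0.55, adjusted p = 0.00108, and 0.33, adjusted p = 0.0224). *Zc3h12a*, which encodes the RNase Regnase-1, rose with the label normal (0.35, SE 0.0875, adjusted p = 0.0423). With Veh, 7 were higher (4 without replicate 1 labelled normal) and 1 lower with the label steatotic, against 16.4% and 14.3% of all tested genes, among them *Tnip3* (1.13, SE 0.175, adjusted p = 0.00431) and *Zc3h12a* (0.66, SE 0.0876, adjusted p = 0.001), whereas *Nfkbib*, which encodes IκBβ, was lower (-0.33, SE 0.0523, adjusted p = 0.00234).

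Of 27 genes listed as upstream activators, not all of which activate every route, CC raised 9 and lowered 5 with the label steatotic. With the label normal, it raised 6 and lowered 1, and the median was 0.04 with both labels. The background was 12.0% higher and 10.9% lower with the label steatotic and 6.27% and 5.54% with the label normal. With the label steatotic, 2 were called lower without replicate 2 of the Veh or of the CC libraries. With the label normal, 3 rose without replicate 1 of its Veh or CC libraries or without replicate 1 or 2 labelled steatotic with Veh, and 2 without replicate 2 of its CC libraries. *Traf1*, an adaptor of TNF receptor signaling, rose from 22.2 ± 5.69 to 73.9 ± 9.62 CPM with the label steatotic (log2 fold change 1.75, SE 0.255, adjusted p = 0.00559) and from 11.2 ± 2.02 to 28.2 ± 6.07 CPM with the label normal (1.36, SE 0.256, adjusted p = 0.0257). *Ikbkg*, the regulatory subunit of the IκB kinase, also rose with both labels (1.09, adjusted p = 0.00237, and 0.63, adjusted p = 0.0394). *Irak4*, the kinase next to MyD88, fell with both (-0.67, adjusted p = 7.84e-05, and -0.54, adjusted p = 0.000605), and *Map3k8*, a kinase held by the *Nfkb1* precursor, fell with the label steatotic (-0.52, SE 0.0616, adjusted p = 0.000728). With Veh, 10 activators were higher (6 without replicate 1 or 2 labelled normal or replicate 2 labelled steatotic) and 1 lower with the label steatotic, against 16.4% and 14.3%, with *Traf1* (1.03, adjusted p = 0.03) and the noncanonical kinase *Map3k14* (0.56, adjusted p = 0.00994) the highest and *Irak2* (-0.21, adjusted p = 0.0462) the one lower. The call for *Irak2* was not made with DESeq2, with the replicate block, with every gene that had any count, with the libraries of the comparison alone, or without replicate 1 or 2 labelled normal with CC, replicate 1 labelled steatotic with Veh, or replicate 1 or 2 labelled steatotic with CC.

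**Figure D4:**
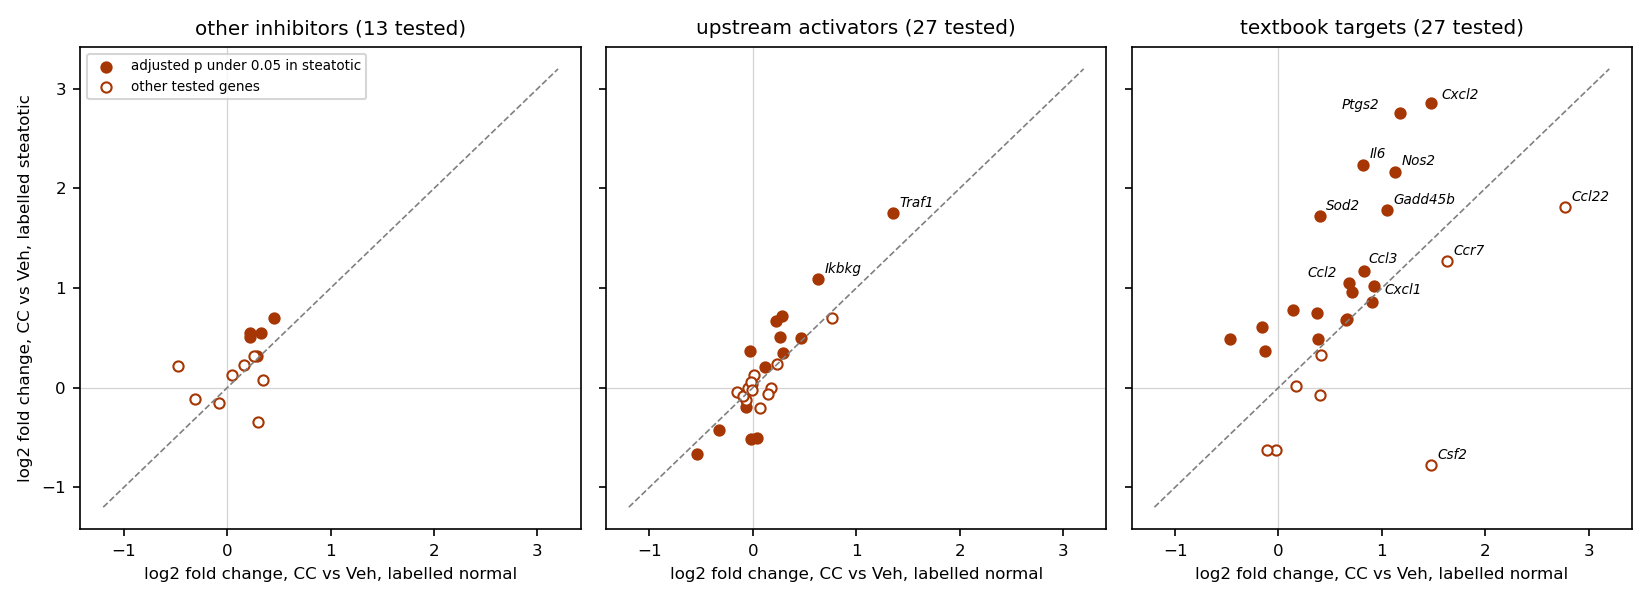
Log2 fold change with CC in macrophages labelled steatotic (vertical axis) against that in macrophages labelled normal (horizontal axis) for the tested genes of 3 lists, filled where the adjusted p is under 0.05 in the former, with the dashed line marking equal responses. Most targets lie above 0 on both axes, with *Cxcl2* at 2.86 and 1.48, whereas the 27 genes listed as upstream activators spread around 0.

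Markers of macrophages and of other cells moved along with these comparisons, and their part in the results was not tested. With CC, the summed macrophage markers went from 15800 to 16300 CPM to 13000 to 13100 CPM with the label normal and from 11500 to 11700 CPM to 10200 to 11100 CPM with the label steatotic. Of the 8 genes, 5 were called lower and 1 higher with the label normal, and 4 lower and 2 higher with the label steatotic, with *Adgre1* at -0.36 and -0.66 and *Cd14* at 0.54 and 1.08. With CC, the summed Kupffer cell markers fell from 3110 to 3180 CPM to 2450 to 2650 CPM with the label normal and from 4510 to 4550 CPM to 2990 to 3520 CPM with the label steatotic, with 4 and 6 of 8 genes called lower. *Marco* was called higher with the label steatotic (0.71, adjusted p = 0.0187). *Cd5l* made 61.5% to 76.9% of these sums and was not called with the label normal (-0.15, adjusted p = 0.348). Monocyte markers (7 genes) summed to 20.9 to 21.1 CPM with Veh and 14.2 to 15.4 CPM with CC with the label normal. With the label steatotic they summed to 166 to 167 CPM and 117 to 134 CPM. CC lowered 1 of them by a call with the label normal and 2 with the label steatotic, and raised none. Between livers, 6 of 7 were called higher with the label steatotic with either treatment. The 9 T and NK cell markers summed to 574 to 648 CPM with CC and the label steatotic and to 167 to 344 CPM elsewhere, of which *Il7r* made 90.6% to 99.8%, and the others together had 1.23 (Veh) and 0.823 (CC) CPM with the label normal and 16.8 and 14.1 CPM with the label steatotic. Between livers, 7 of the 9 were called higher with the label steatotic with Veh and 9 of 9 with CC. The 7 dendritic cell markers summed to 5.54 to 5.81 CPM with Veh and 10.2 to 10.7 CPM with CC with the label normal. With the label steatotic they summed to 9.81 to 10.0 CPM and 8.61 to 9.38 CPM. Between livers with Veh, 2 were called higher and 2 lower, among the latter *Ccr7*, also a target above. The 6 B cell markers summed to 3.81 to 7.29 CPM. The 6 neutrophil markers, mostly *Csf3r* and *Mmp8*, summed to 138 to 140 CPM with Veh and 150 to 151 CPM with CC with the label normal, and to 249 to 258 CPM and 384 to 390 CPM with the label steatotic. With either label CC raised *S100a8* (0.66 normal, 1.97 steatotic) and *Mmp8* (0.68 and 1.35) and lowered *Csf3r* (-0.39 and -0.26), the 3 of the 6 that were tested. The 12 hepatocyte markers summed to 60.7 to 71.2 CPM with the label normal, mostly *Alb*, and to 34.0 to 40.6 CPM with Veh and 88.3 to 101 CPM with CC with the label steatotic, mostly *Ass1*. Between the labels *Alb* and *Ass1* went opposite ways, *Alb* from 48.8 to 1.58 CPM and *Ass1* from 7.03 to 34.8 CPM with Veh. Of the 10 tested, 7 were called lower with the label steatotic with Veh and 8 with CC, and only *Ass1* higher. Without the highest gene of each group, the sums were 20.1 (Veh) and 21.6 (CC) CPM with the label normal. With the label steatotic they were 2.54 and 2.64 CPM. The 6 stellate cell markers, nearly all *Dcn*, went from 2.58 to 2.69 CPM to 5.91 to 7.35 CPM with CC with the label normal and from 17.9 to 21.1 CPM to 108 to 135 CPM with the label steatotic. Of the 6 endothelial markers, CC raised 3 with the label steatotic, *Stab2*, *Kdr* and *Cdh5* (0.26 to 0.57 on the log2 scale), and lowered *Pecam1* from 95.2 to 38.1 CPM. Their sum was 138 to 143 CPM with Veh and 165 to 170 CPM with CC with the label normal, and 238 to 242 CPM and 214 to 226 CPM with the label steatotic. Between livers, 4 of the 5 tested were higher and 1 lower with the label steatotic with Veh (*Pecam1* 1.91, *Kdr* 1.58), and 3 were higher and none lower with CC. The mitochondrial share of counts was 1.67% to 1.85% with the label normal, and with the label steatotic it was 1.44% to 1.46% with Veh and 1.07% to 1.13% with CC.

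Across the 8 libraries, the 10 genes fell into different patterns, given here as descriptions, since the libraries come in 4 groups of 2 and each pair shares a treatment. *Nfkb2* and *Nfkbia* had a Pearson r of 0.966 in log2 CPM, and *Relb* and *Nfkbia* 0.962. Of the 45 pairs, 6 were above 0.9 and 7 below 0. *Nfkbiz* had its highest r with *Bcl3* (0.763) and an r of -0.233 with *Nfkbia*. For *Nfkbiz* and *Bcl3* alike, all 4 libraries labelled steatotic were above all 4 labelled normal, whichever treatment they had. Among 9011 genes with a mean log2 CPM above 3, the gene most like *Nfkb2* was *Lhfpl2* (0.991), that most like *Nfkbia* was *Cd80* (0.987), and that most like *Nfkbiz* was *Rac2* (0.988). For *Nfkb1* it was *Ern1* (0.987), for *Rel* *Pik3cb* (0.983), for *Rela* *Wars* (0.985) and for *Bcl3* *Pigh* (0.984). For *Relb* it was *Arhgap24* (0.9845), for *Nfkbie* *Fam207a* (0.969) and for *Tnfaip3* *Slc29a3* (0.9745).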

How the data were processed

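Poly(A) RNA of cultured hepatic macrophages was sequenced with 150 bp paired-end reads in 8 libraries, 2 per group, with a directional kit. Reads were trimmed with fastp, mapped to mm10 by HISAT2 and quantified by StringTie (versions not given in the sources used here), and the authors deposited estimated counts per gene without normalization. These were whole numbers and were used as deposited. Multiples of 4 made up 35.0% to 36.5% of values from 1 to 20, against 23.9% to 27.0% of values from 100 to 1000, so 1 fragment may stand for about 4 counts, and counts divided by 4 were an alternative. Total counts were 58668655 to 74529462 per library, and 3 counts correspond to 0.0403 to 0.0511 CPM, or 0.161 to 0.205 CPM for 3 fragments of 4 counts, limits that cover counting error only.

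Libraries were grouped by their labels. The 15202 genes reaching 0.5 CPM in 1 or more libraries were fitted with edgeR 4.0.16 (R 4.3.3, TMM, robust glmQLFit, glmQLFTest) in 1 model with 4 group means, with Benjamini-Hochberg adjustment over all of them. Printed CPM are not TMM-scaled. Intervals are 95% intervals from the fitted SE. In simulated data with the same spread for every gene, the step recovered 67 of 100 genes changed by 1 on the log2 scale. It recovered 100 of 100 changed by 1.5, both with CC with the label steatotic (14486 genes, 11 unchanged genes called). For the difference of responses (14475 genes), 14 and 84 of 100 were recovered, and 6 unchanged genes were called.

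The 10 genes, the pathway lists and the marker lists were chosen with earlier results of these data known. Named besides the 10 genes were *Mc4r*, for each pathway list the 2 called genes with the highest and the 2 with the lowest log2 fold change in the CC responses and the Veh comparison, and the gene most like each of the 10 by Pearson r of log2 CPM (prior count 2). Names of overlapping genes and of markers, and the targets *Icam1* and *Saa3*, were added outside this rule. Promoter windows are RefSeq's on GRCm38.p6. Alternatives were DESeq2 1.42.0, edgeR with DESeq2's size factors or with library size alone, 2 other filters, a prior count of 2, a replicate block, the libraries of a comparison alone, counts divided by 4 and leaving out each library. Figures were drawn with matplotlib 3.10.9.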

Additional observations from a re-analysis of the deposited data

Results flagged for a closer look

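For 3 genes, the response to CC differed between livers by the interaction test in edgeR (steatotic minus normal, log2). *Relb* had a difference of 0.53, from a response of 0.58 with the label steatotic and 0.06 with the label normal. *Nfkbia* had a difference of 0.48, from 0.60 and 0.13. *Nfkbiz* had a difference of -0.42, from -0.27 and 0.15, and its call was lost in 7 of the 8 fits that left out 1 library. All 3 directions rest on the liver labels.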

How the results depend on the processing

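Over all alternatives, 780 values of the 10 genes kept their direction and side of the threshold, 30 newly passed it, 21 no longer did and 9 changed sign. The number of the 10 genes called with CC was 5 to 7 with the label steatotic and 0 to 3 with the label normal when each library was left out, 2 to 4 between livers with Veh, 4 to 7 with CC, and 1 to 3 for the difference of responses. With the label normal, DESeq2 called 4, no gene was called (0) without replicate 1 with Veh and 1 without replicate 1 with CC. For the difference, 1 gene was called without replicate 1 of the libraries labelled steatotic with Veh. Over all genes, DESeq2 called 737 differences of responses against 490 in edgeR. The signs that changed were of values that had not passed. *Rela* with CC with the label normal ranged from -0.36 to 0.05 over the fits that left out 1 library (positive without replicate 2 with CC). *Nfkbie* between livers with Veh ranged from -0.14 (without replicate 2 labelled steatotic) to 0.36 and was also negative, at -0.07, without replicate 1 labelled normal. For the difference of responses, *Rel* ranged from -0.06 to 0.13 (negative without replicate 2 labelled normal with Veh or with CC), *Nfkbie* from -0.16 to 0.35 (negative without replicate 2 labelled normal with Veh, replicate 1 with CC or replicate 1 labelled steatotic with Veh) and *Tnfaip3* from -0.47 to 0.58 (negative without replicate 1 labelled steatotic with CC). The causes were not tested.

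Deviations of same-numbered libraries had correlations of -0.0323 to 0.0429 across genes, so no general shared deviation was seen. This cannot tell whether equal numbers share animals or cultures, which the labels do not say. *Nfkbie* was higher in replicate 2 than in replicate 1 in every group. With the replicate number as a block, 7 genes were called with CC with the label steatotic and 3 with the label normal, the added gene being *Nfkbie* in both (0.76, adjusted p = 0.00437, and 0.65, adjusted p = 0.0156). A fit on the libraries of 1 comparison alone gives no difference of responses. With 2 libraries per group, the simulated differences of responses of 1 on the log2 scale were mostly missed (14 of 100 found), which limits what the lack of a call for *Tnfaip3* or *Nfkbie* can show.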
